A study of Homo sapiens with 12 samples.

Results

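Immediate early genes are switched on within minutes of a signal without new protein synthesis, and MAPK feedback genes are the targets of the same pathway that restrain it. Their levels were followed on Affymetrix arrays in S1 cells of the HMT-3522 series, a line of human breast epithelium that is not neoplastic. The group held 37 genes: transcription factors of the EGR, AP-1, ATF, NR4A and KLF families with MYC, SRF and ETV5, the MAPK phosphatases and Sprouty proteins, the ZFP36 mRNA decay factors, IER2, IER3, PHLDA1 and MCL1, and the matricellular proteins CCN1 and CCN2. A gene was measured by the probe sets that the platform annotation assigned to its symbol alone, which covered 36 of the 37 members among 11963 genes in all. EGR2 had no such probe set and was not analysed here. The 36 members had 74 probe sets. For 17 members there was 1 probe set, and for the other 19 the brightest over the 12 arrays was used. The remaining probe sets are given by value for some members and by a count of signs for all.

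The study placed S1 cells in basement membrane gel, where they form acini, hollow spheres of one cell layer, and asked how gene expression differs when 2 drugs prevent apical polarity. All 12 cultures shared the line, passage 55 to 60, a plating density of 35000 cells per cm2, medium with 5% Matrigel, 8 days with epidermal growth factor (EGF) and a last 48 h without it. The 4 vehicle cultures were labelled polarized. The 4 AGA cultures received 18-alpha-glycyrrhetinic acid, an inhibitor of gap junctions, and the 4 Aza cultures 5-aza-2'-deoxycytidine, which blocks DNA methyltransferases. Each drug was given at 10 µM from the day of plating for 10 days, renewed every 2 days, and both treated groups were labelled not polarized. The cells were of a single line. The design calls the 4 replicates of a group biological and says no more about how separate they were, so p-values measure the spread between these samples.

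In mammary epithelial cells EGF binds its receptor and activates RAS, RAF, MEK and ERK in turn. ERK phosphorylates factors that sit with SRF at CArG boxes, and the first genes to respond include EGR1, FOS and FOSB. Their protein products switch on later genes, while DUSP phosphatases remove phosphate from ERK, JNK and p38, Sprouty proteins act higher in the cascade, and ZFP36 proteins shorten the life of the same short-lived mRNAs.

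Proximal promoters, 250 bases before the start site in the RefSeq tables of build GRCh38.p14, were available for 24 of the 36 measured members, in 30 windows. Those of EGR1, FOS and FOSB are shown because their transcripts were among the members with the largest differences below. The windows are chr5:138465229-138465478, chr14:75278578-75278827 and chr19:45467746-45467995, all on the plus strand, written 5′ to 3′. Capitals mark CArG boxes, which SRF binds, and TGACG or its reverse complement CGTCA, the core of the site read by CREB and ATF factors.

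EGR1: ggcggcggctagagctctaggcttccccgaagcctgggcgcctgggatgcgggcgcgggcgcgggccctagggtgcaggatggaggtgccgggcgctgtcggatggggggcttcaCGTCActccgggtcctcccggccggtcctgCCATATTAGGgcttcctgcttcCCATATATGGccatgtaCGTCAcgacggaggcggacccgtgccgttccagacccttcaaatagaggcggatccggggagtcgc
FOS: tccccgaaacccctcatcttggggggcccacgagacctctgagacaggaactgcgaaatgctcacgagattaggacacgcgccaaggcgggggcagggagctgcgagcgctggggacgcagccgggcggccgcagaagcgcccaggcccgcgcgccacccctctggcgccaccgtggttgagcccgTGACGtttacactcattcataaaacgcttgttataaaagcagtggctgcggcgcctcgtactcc
FOSB: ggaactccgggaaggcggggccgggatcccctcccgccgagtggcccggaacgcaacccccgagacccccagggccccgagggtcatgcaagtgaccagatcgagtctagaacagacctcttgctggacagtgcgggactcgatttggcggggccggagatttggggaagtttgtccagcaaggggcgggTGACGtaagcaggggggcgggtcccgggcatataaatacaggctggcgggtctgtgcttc

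EGR1 carried a pair of CArG boxes, the first 105 to 96 and the second 83 to 74 bases before the start, and 2 CGTCA letters, at 135 to 131 and 66 to 62 bases. FOS had 1 TGACG at 64 to 60 bases and FOSB 1 at 60 to 56 bases. Searched on both strands, the CArG box was found in 2 of the 30 member windows (6.67%, EGR1 and SRF) against 1.16% of all 35116 promoter windows. TGACG occurred in 16 member windows (53.3% against 21.2%), from 15 genes. The full palindrome TGACGTCA, which contains TGACG, occurred in 3 (10% against 1.65%): those of JUND, DUSP1 and ZFP36L1. GCGGGGGCG, which EGR factors bind, occurred in 5 (16.7% against 4.72%) and TGANTCA, the AP-1 letters, in 0 (against 6.57%). These matches describe letters in short windows, and sites further upstream, those of FOS and FOSB included, were not searched.

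The deposited intensities were quantile normalized and are given as log2 levels, so that a difference of 1 is a doubling. The median deposited intensity ran from 23.5 to 36.2 over the arrays, and 5.25% to 7.92% of values lay below 1 and were set to 1, which is 0 on the log2 scale. Of the epithelial markers, 8 of 11 measured were above the median level of all probe sets (CDH1, KRT5, KRT8, KRT14, KRT18, SFN, LAMB3 and ITGB4), while EPCAM, KRT15 and KRT19 were at the floor on some arrays. Among markers of other cells, 2 of 8 for fibroblasts (COL1A1 and DCN), 0 of 5 for leukocytes and 1 of 5 for endothelium (KDR) were above it. Arrays with the same replicate number in different groups deviated together: their correlations over probe sets above the median level were 0.37 to 0.78. Differences between groups were therefore taken within pairs of one number (vehicle 1 with AGA 1, and so on). In whole cultures, fewer cells with a transcript and less transcript per cell cannot be told apart.

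With AGA, the members' levels were mostly below those of vehicle. The mean paired difference was below 0 for 28 of 36 members, against 48.5% of all genes, and the median member stood at -0.34, against 0.01 for all genes. By pair, the members' median was -0.30, -0.45, -0.25 and 0.23 for replicates 1 to 4, so replicate 4 did not share the direction. The median over the pairs was -0.19 without AGA replicate 2, and also at a floor of 16. None of the 36 members passed an adjusted p of 0.05 in limma with the replicate number as a block, as none of all genes did by their brightest probe set (0% lower and 0% higher). At an unadjusted p under 0.05, limma marked 7 members as lower with AGA (background 4.53%), namely EGR1, FOS, FOSB, NR4A1, SRF, IER2 and PHLDA1, and 0 as higher (background 5.37%). When limma also modelled the dependence of variance on intensity, 1 member passed: NR4A1 fell (background 0.351% lower, 0.410% higher), a call that was lost at a floor of 16 or with a pseudocount of 16.

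The difference with AGA had the same sign in 4 of 4 pairs for 10 members. FOS, FOSB, NR4A1, SRF, DUSP6, SPRY2, ZFP36L1, PHLDA1 and CCN1 were lower in every pair (9 of 36, background 9.15%), and ETV5 was higher in every pair (1 of 36, background 10.4%). Of these, FOS, FOSB, NR4A1 and ETV5 also reached a mean difference of at least 0.58 in size (background 2.88% lower, 2.99% higher). Only for PHLDA1 did the AGA and vehicle arrays not overlap at all (background 1.28% lower, 1.42% higher).

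With Aza, which was compared with the same vehicle arrays, the mean difference was below 0 for 27 of 36 members (49.7% of all genes) and the median member stood at -0.19 (0.00 for all genes). The pairs gave medians of -0.31, -0.15, -0.21 and -0.01. No member passed in limma with the block (background 0% lower and 0% higher) or with the intensity trend (0% lower, 0.00836% higher). At an unadjusted p under 0.05, limma marked KLF6, ZFP36L1 and PHLDA1 as lower (background 2.37%) and 0 as higher (background 2.88%). Lower in all 4 pairs were FOSB, FOSL1, JUNB, KLF6, DUSP1, DUSP5, ZFP36, ZFP36L1 and PHLDA1 (9 of 36, background 7.30%), and KLF4 was higher in all 4 (background 8.25%). FOSB alone reached 0.58 in size (background 2.21%), though its difference was -0.12 without vehicle replicate 2 and -0.37 without Aza replicate 4, and no member's Aza arrays were clear of the vehicle arrays (background 0.802% lower, 0.869% higher).

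**Figure D1:**
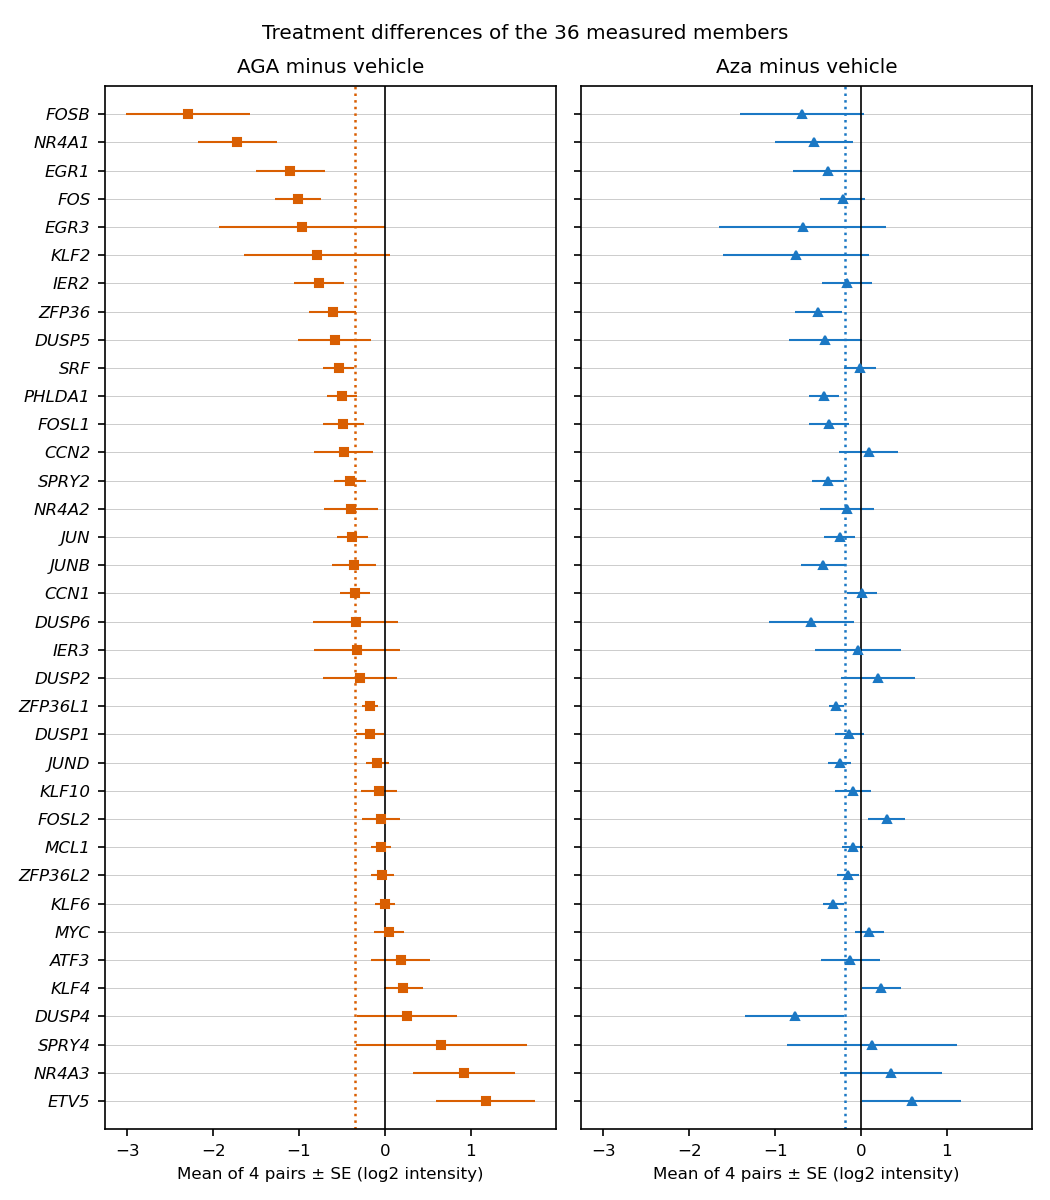
Mean paired difference of each measured member from vehicle, for AGA on the left and Aza on the right, on the log2 scale. Points are means of 4 pairs, bars the limma standard error, and dotted lines the medians of the 36 members (-0.34 and -0.19). FOSB, NR4A1, EGR1 and FOS lie furthest below 0 with AGA, and ETV5 furthest above.

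The EGR factors are zinc finger proteins that carry a growth signal to its secondary targets. EGR1 read 9.36, 9.37, 8.79 and 6.60 in vehicle replicates 1 to 4, 9.50, 7.05, 7.76 and 5.41 with AGA, and 9.59, 8.61, 9.04 and 5.33 with Aza. Replicate 4 was the lowest array of each group, and the groups overlapped. EGR1 was lower with AGA in 3 of 4 pairs and 0.13 higher in pair 1. Here and below, values after ± are limma standard errors. They rest on all 12 arrays and do not measure the spread of the 4 pair differences. The mean difference with AGA was -1.10 ± 0.40 (4 pairs, limma SE, 2.14-fold lower, limma adjusted p = 0.479). With Aza it was -0.39 ± 0.40 (limma adjusted p = 0.952). Within groups, EGR1 in replicate 4 was below the mean of replicates 1 to 3 by differences of -2.58 in vehicle, -2.70 with AGA and -3.75 with Aza. Its second probe set gave -4.15, -4.01 and -4.41 there, and -1.77 for AGA against vehicle. EGR3 ranged from 0.32 to 6.11 over the 12 arrays, and its replicate 4 difference was -2.33 in vehicle, 0.05 with AGA and -2.27 with Aza.

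The AP-1 proteins bind DNA in pairs, such as a FOS member or ATF3 with a JUN member. FOS read 10.74, 9.08, 9.76 and 8.41 in vehicle, 10.08, 7.71, 7.94 and 8.22 with AGA, and 10.39, 8.96, 9.29 and 8.50 with Aza. Replicate 1 was the highest array of each group, and AGA was below its vehicle partner in every pair, by 0.19 in replicate 4 and by 0.66 to 1.83 in the others. The mean difference with AGA was -1.01 ± 0.27 (4 pairs, limma SE, 2.02-fold lower, limma adjusted p = 0.427). With Aza it was -0.21 ± 0.27 (limma adjusted p = 0.960). With the intensity trend the limma adjusted p for AGA was 0.0875. Over the 12 fits that left out 1 array, this limma adjusted p ran from 0.00933 (without AGA replicate 4) to 0.231, past the threshold in 1. It was 0.0130 without all 3 arrays of replicate 4 and 0.292 at a floor of 16.

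FOSB, the close relative of FOS, had the widest range of the AP-1 members. It read 7.98, 6.46, 5.03 and 1.14 in vehicle, 6.91, 1.33, 2.63 and 0.57 with AGA, and 7.57, 5.21, 4.71 and 0.36 with Aza. Replicate 1 was high and replicate 4 close to the floor in each group, so the groups overlapped although each AGA array was below its vehicle partner. By pair, the difference with AGA ranged from -0.57 in pair 4 to -5.13 in pair 2. The mean difference was -2.30 ± 0.72 (4 pairs, limma SE, 4.91-fold lower, limma adjusted p = 0.450). With Aza it was -0.69 ± 0.72 (limma adjusted p = 0.952), lower in 4 of 4 pairs. The replicate 4 differences were -5.35 in vehicle, -3.05 with AGA and -5.47 with Aza. The deposited intensity in replicate 4 was 2.35, 1.47 and 1.27, so the size depends on the floor: at a floor of 16 the AGA difference was -1.14. Without AGA replicate 2 it was -1.45.

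ATF3, a stress-induced factor that binds DNA with JUN proteins, followed the replicate numbers rather than the drugs. It read 8.33, 7.14, 6.46 and 4.54 in vehicle, 7.84, 6.57, 6.76 and 6.03 with AGA, and 8.04, 6.37, 6.06 and 5.51 with Aza. Replicate 1 was the highest and replicate 4 the lowest array in each group, by differences of -2.78, -1.02 and -1.32 from replicates 1 to 3. The mean difference was 0.18 ± 0.35 with AGA (limma adjusted p = 0.904) and -0.12 ± 0.35 with Aza (limma adjusted p = 0.982). Among the other AP-1 members, the AGA difference ranged from -0.48 for FOSL1 to -0.04 for FOSL2, and the Aza difference from -0.44 for JUNB to 0.30 for FOSL2. FOSL2 was higher in replicate 4 in all 3 groups (0.16, 0.83 and 0.42).

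NR4A1 to NR4A3 are nuclear receptors that act without a known natural ligand. NR4A1 read 7.02, 7.01, 5.45 and 3.72 in vehicle, 6.29, 4.11, 3.65 and 2.28 with AGA, and 6.77, 6.34, 5.80 and 2.12 with Aza. Each AGA array was below its vehicle partner, by 0.73, 2.89, 1.81 and 1.44, while the groups as a whole overlapped. Replicate 4 was the lowest array in all 3 groups, and AGA replicate 1 lay above vehicle replicate 3. The mean difference with AGA was -1.72 ± 0.46 (4 pairs, limma SE, 3.29-fold lower, limma adjusted p = 0.429). With the intensity trend the limma adjusted p was 0.0427, and over the 12 fits that left out 1 array it ran from 0.0188 to 0.205, past the threshold in 4. At a floor of 16 it was 0.440, and with a pseudocount of 16 it was 0.0501. With Aza the mean difference was -0.54 ± 0.46 (limma adjusted p = 0.934), and pair 3 was higher by 0.35. The replicate 4 differences were -2.78 in vehicle, -2.41 with AGA and -4.19 with Aza. A second NR4A1 probe set gave -1.07 with AGA, lower in 3 of 4 pairs, and the third gave 0.35, lower in 2 of 4; the mean of the 3 gave -0.81. The brightest NR4A1 probe set, like those of NR4A2 and JUN, is of a class that can also hybridise to similar transcripts. NR4A2 stood between 2.84 and 4.95 over the arrays and NR4A3 between 1.08 and 4.13. For NR4A3 the 3 probe sets gave AGA differences of 0.92, -1.78 and -1.23, which differ in sign.

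The KLF factors are zinc finger regulators of growth arrest and differentiation. Their AGA differences were -0.79 for KLF2, 0.22 for KLF4, 0.00 for KLF6 and -0.07 for KLF10, and none passed. KLF6 was lower with Aza in 4 of 4 pairs, by a mean difference of -0.32 ± 0.12 (limma adjusted p = 0.912), and KLF4 was higher in 4 of 4, by 0.24 ± 0.23 (limma adjusted p = 0.949). For KLF2, pair 1 gave -4.48, with AGA replicate 1 at the floor, and the other 3 pairs were higher by 0.20 to 0.58. KLF2 was higher in replicate 4 in all 3 groups (0.40, 1.71 and 1.30). The differences with AGA and Aza include replicate 1 arrays at or near the floor, which read 0 and 0.71.

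MYC, the growth factor responsive factor that promotes biosynthesis, had the highest share of its variance between replicate numbers of the 36 members, though not the largest differences. It read 10.70, 9.61, 9.68 and 8.05 in vehicle, 11.31, 9.13, 9.71 and 8.09 with AGA, and 10.92, 9.53, 9.72 and 8.27 with Aza. In each group replicate 1 was highest, replicates 2 and 3 lay between, and replicate 4 was lowest. The mean difference was 0.05 ± 0.17 with AGA (limma adjusted p = 0.951) and 0.10 ± 0.17 with Aza (limma adjusted p = 0.973). Replicate 4 lay below the mean of the others by differences of -1.94, -1.96 and -1.78 in the 3 groups. Replicate number took 97.3% of its sum of squares over the 12 arrays and group 0.155%.

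SRF, the factor that binds CArG boxes, was lower with AGA in 4 of 4 pairs, by 0.14 to 1.25, with a mean difference of -0.54 ± 0.18 (limma adjusted p = 0.468). With Aza its mean difference was -0.01 ± 0.18 (limma adjusted p = 0.999). ETV5, an ETS factor downstream of ERK, read 3.03, 1.52, 2.28 and 3.52 in vehicle, 4.42, 2.83, 3.50 and 4.31 with AGA, and 2.20, 3.65, 4.03 and 2.82 with Aza. It was among the 9 members below the median level of all probe sets, and each AGA array was above its vehicle partner while the groups overlapped. Its other 2 probe sets gave AGA differences of 0.90 and 0.34. For the brightest one the mean difference with AGA was 1.18 ± 0.58 (4 pairs, limma SE, 2.26-fold higher, limma adjusted p = 0.575). At a floor of 16 it was 0.18.

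**Figure D2:**
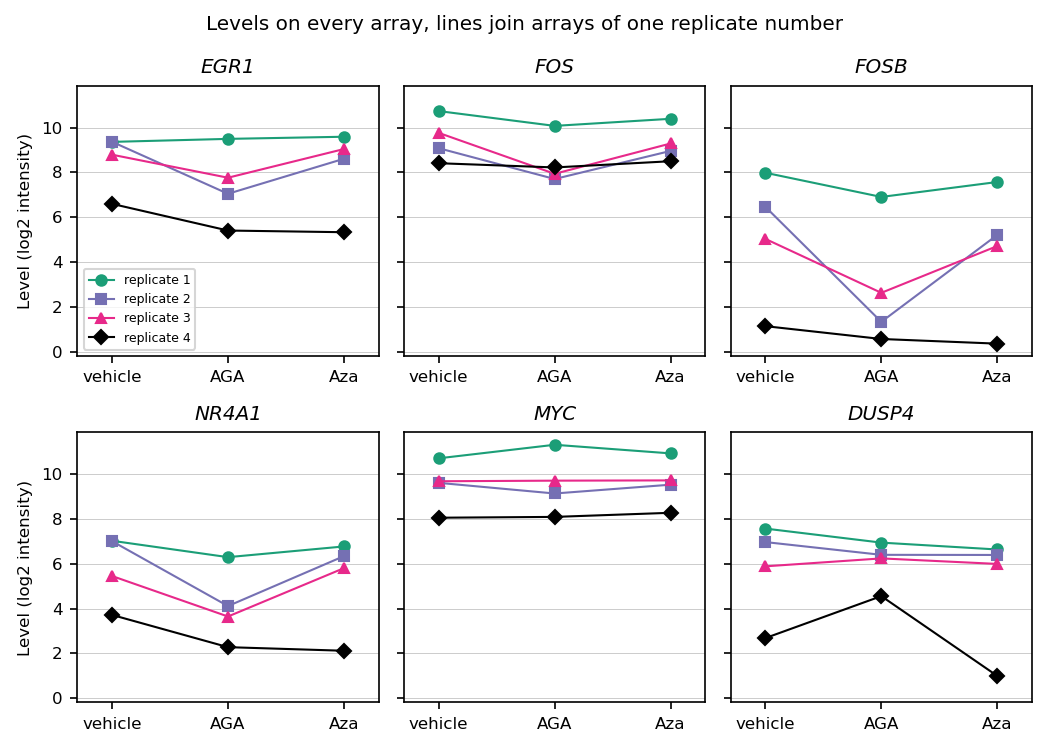
Log2 level of 6 members on each of the 12 arrays, by group, with lines joining the arrays of one replicate number. EGR1, FOSB, NR4A1, MYC and DUSP4 have replicate 4 as the lowest array in each group, and FOS, FOSB and NR4A1 are lower with AGA in every pair.

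The dual-specificity phosphatases DUSP4, DUSP5 and DUSP6 are ERK-induced and close the feedback loop on ERK. DUSP4 read 7.57, 6.97, 5.88 and 2.68 in vehicle, 6.94, 6.40, 6.24 and 4.55 with AGA, and 6.64, 6.39, 5.99 and 1.00 with Aza. Replicate 4 was lowest in each group and stood far from the other 3 with Aza. Its replicate 4 differences were -4.12, -1.97 and -5.34, and those of its second probe set -2.19, -3.92 and -1.99. The mean treatment difference was 0.26 ± 0.58 with AGA (limma adjusted p = 0.919) and -0.77 ± 0.58 with Aza (limma adjusted p = 0.928).

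DUSP5, a nuclear phosphatase for ERK, read 7.82, 7.34, 6.39 and 4.09 in vehicle, 7.99, 5.51, 5.00 and 4.80 with AGA, and 7.53, 6.58, 5.94 and 3.95 with Aza. Its arrays fell in the same order, replicate 1 above 2, 2 above 3 and 3 above 4, in each of the 3 groups. DUSP6, the cytoplasmic phosphatase for ERK, read 6.21, 4.50, 4.26 and 2.93 in vehicle, 6.20, 3.24, 4.20 and 2.91 with AGA, and 5.18, 4.81, 4.43 and 1.17 with Aza. Replicate 1 was highest and replicate 4 lowest in each group. The replicate 4 differences were -3.09, -1.36 and -2.74 for DUSP5 and -2.06, -1.63 and -3.63 for DUSP6.

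For the treatments, DUSP5 differed by -0.58 ± 0.42 with AGA and -0.41 ± 0.42 with Aza, and DUSP6 by -0.34 ± 0.49 and -0.58 ± 0.49. DUSP6 was lower with AGA in all 4 pairs, but by 0.06 or less in 3 of them. DUSP1, which acts on JNK and p38 as well as ERK, lay between 11.59 and 12.80 on all arrays. DUSP2 was higher in replicate 4 in all 3 groups (0.87, 0.20 and 1.52). Among the inhibitors of receptor signalling, SPRY2 was lower with AGA in 4 of 4 pairs (-0.41 ± 0.18, limma adjusted p = 0.541). SPRY4 spread from 0.45 to 4.71, and its replicate 4 differences had both signs (-3.72, -1.02 and 1.27).

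The ZFP36 proteins bind AU-rich mRNA ends and speed their decay. ZFP36L1 was lower in 4 of 4 pairs with AGA (-0.18 ± 0.09, limma adjusted p = 0.597) and with Aza (-0.29 ± 0.09, limma adjusted p = 0.912), within a range of 9.66 to 10.26 over the arrays. Group took 42.7% of its sum of squares, the highest share of the 36 members, against 12.3% for the median of all genes. ZFP36 was lower in 4 of 4 pairs with Aza (-0.50 ± 0.27) and differed by -0.61 ± 0.27 with AGA. ZFP36L2 differed by -0.03 with AGA and -0.15 with Aza.

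IER3, an early product that protects cells from apoptosis, read 7.64, 6.30, 5.73 and 3.24 in vehicle, 7.07, 4.12, 5.98 and 4.46 with AGA, and 7.35, 6.0, 5.94 and 3.48 with Aza. Replicate 1 was highest in each group, and replicate 4 was lowest except with AGA, where replicate 2 was. Its replicate 4 differences were -3.32, -1.27 and -2.95, and its treatment differences -0.32 ± 0.50 with AGA and -0.03 ± 0.50 with Aza.

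PHLDA1, a pleckstrin homology domain protein, read 6.66, 6.11, 6.07 and 5.91 in vehicle, 5.71, 5.69, 5.81 and 5.54 with AGA, and 6.18, 5.95, 5.81 and 5.08 with Aza. All AGA arrays were below all vehicle arrays. It differed by -0.49 ± 0.17 with AGA (limma adjusted p = 0.475) and -0.43 ± 0.17 with Aza (limma adjusted p = 0.912), and was lower in all pairs of both. All 5 of its probe sets had AGA differences below 0, from -0.49 to -0.13. IER2 differed by -0.77 ± 0.29 with AGA, lower in 3 of 4 pairs, and MCL1, which blocks apoptosis, by -0.04 ± 0.12.

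CCN2, a secreted matricellular protein and YAP target, read 9.74, 8.78, 8.12 and 6.50 in vehicle, 9.77, 8.50, 6.52 and 6.44 with AGA, and 9.22, 8.97, 8.20 and 7.13 with Aza. The arrays of each group had the same order, from replicate 1 at the top to replicate 4. The replicate 4 differences were -2.38, -1.82 and -1.67. The treatment differences were -0.48 ± 0.34 with AGA and 0.09 ± 0.34 with Aza. CCN1 was lower with AGA in 4 of 4 pairs (-0.35 ± 0.18, limma adjusted p = 0.581), and its second probe set gave -0.42.

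Across the members, levels followed the replicate number more closely than the group. In vehicle, AGA and Aza alike, replicate 4 was more than 1 log2 unit below the mean of replicates 1 to 3 for 10 members: EGR1, FOSB, ATF3, NR4A1, MYC, DUSP4, DUSP5, DUSP6, IER3 and CCN2. That was 27.8% of the 36, against 2.03% of all genes, and 0 members were more than 1 above (1.47% of all genes). FOSL1 lay just outside, at -1.24, -1.84 and -0.997, and ATF3, at -1.02 with AGA, just inside. EGR3, FOS, JUNB, KLF10, ZFP36 and IER2 were more than 1 lower in vehicle and with Aza, while their AGA differences were between -0.75 and 0.05. Whether the groups differ there was not tested. Averaged over the groups, the differences of the 10 ran from -1.71 for ATF3 to -4.63 for FOSB, whose replicate 4 arrays were close to the floor. At a floor of 16, FOSB, NR4A1 and DUSP6 were no longer over 1 in all 3 groups, and FOSL1 was. With one array per number and group there is no replicate of this contrast within a group, and no test was made. The contrast was chosen because earlier results of these data showed replicate 4 apart, so the sizes and shares are a description.

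Of the 36 members, 26 were lower in replicate 4 in all 3 groups (72.2% against 25.7% of all genes), and FOSL2, KLF2 and DUSP2 were higher in all 3 (8.33% against 26.7%). The median member's replicate 4 difference was -1.34 in vehicle, -0.67 with AGA and -0.89 with Aza, and that of all genes 0.00, 0.02 and 0.01. The other 38 probe sets of the members had the sign of the brightest one in 35 cases for the mean replicate 4 difference, in 25 for AGA and in 26 for Aza. Without replicate 1 in the comparison, 6 members stayed over 1 (EGR1, FOSB, NR4A1, MYC, DUSP4 and CCN2, against 2.06% of all genes) and the AGA median was -0.29. Without replicate 2 the count was 15.

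**Figure D3:**
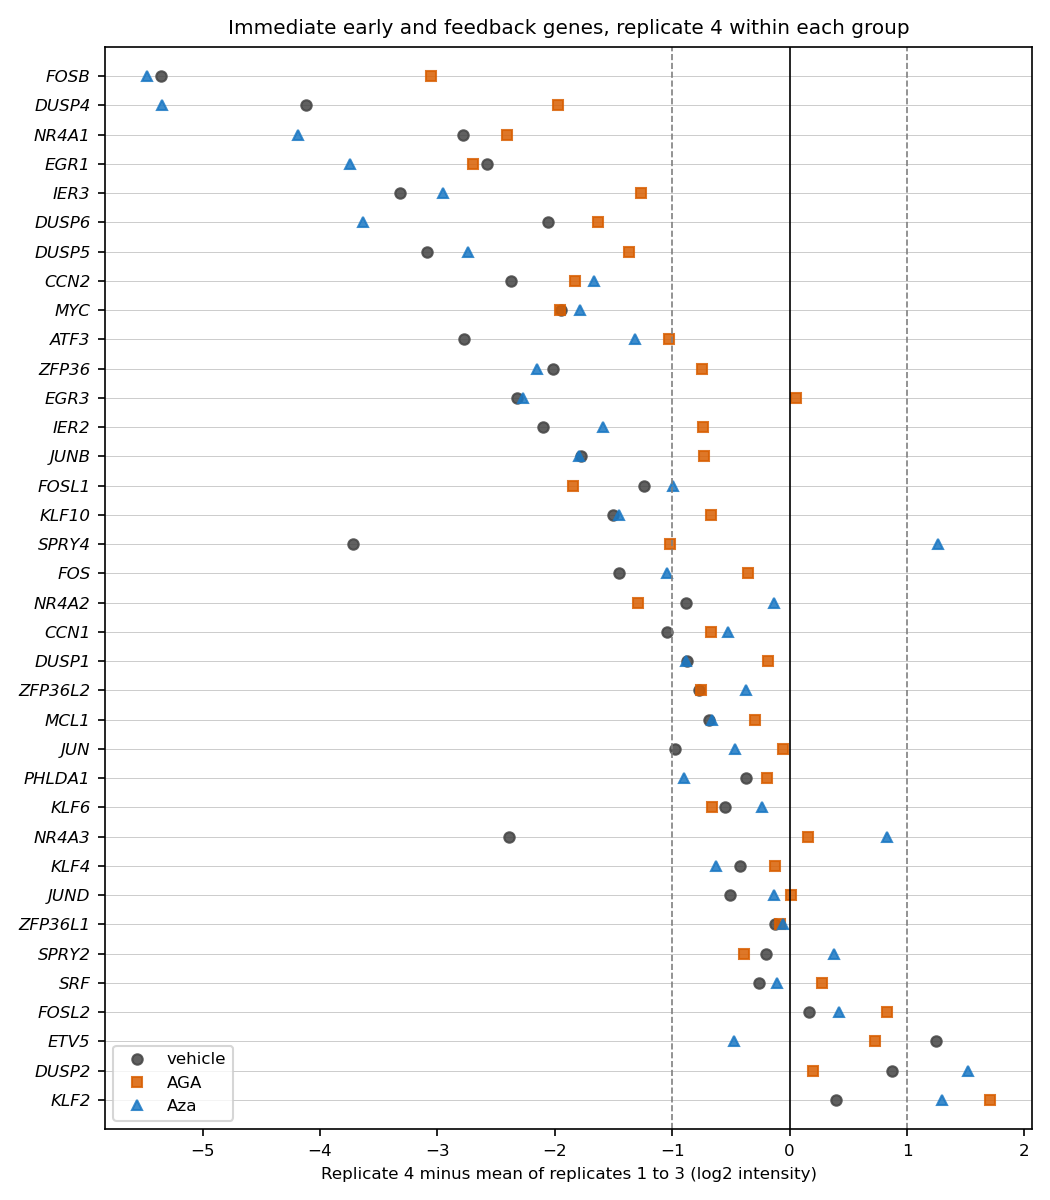
Level in replicate 4 minus the mean of replicates 1 to 3, on the log2 scale, for each measured member in vehicle, AGA and Aza. Dashed lines mark a difference of 1. All 3 points lie left of -1 for 10 members, and those of FOSL2, KLF2 and DUSP2 lie right of 0.

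Replicate 1 stood at the other end. It was the highest array in each of the 3 groups for 19 members, against 4.08% of all genes, and it had the highest mean level for 26 (21.7% of all genes). Replicate 4 was the lowest in each group for 16 members (12.8% of all genes). Over all genes, too, replicate 4 was apart: on the first principal component of the probe sets above the median level, its 3 arrays lay at 38.7 or above and the other 9 at -7.32 or below. The ratio of 3′ to 5′ GAPDH probe sets, a sign of RNA integrity, was 0.19 to 0.23 (log2) in replicate 4 and 0.22 to 0.46 in the others, and that of actin 1.58 to 1.64 against 1.26 to 1.80. The mean level of the epithelial markers in replicate 4 was 6.56 in vehicle, 7.10 with AGA and 6.17 with Aza, the last below all 9 other arrays (6.37 to 7.31). The part of these values in the replicate 4 differences was not tested. The labels do not say what the replicate numbers share.

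The share of each member's sum of squares taken by replicate number had a median of 78.2%, against 43.3% for all genes, and the share taken by group 8.05% against 12.3%. Replicate number took over 50% for 26 of the 36 members, and for 42.3% of all genes. Of the members, 27 of 36 were above the median level of all probe sets, against 6633 of 11963 genes. Same-number correlations were 0.37 to 0.78 over probe sets above that level and 0.059 to 0.26 over all. The part of brightness in these shares was not tested. MYC, KLF10 and MCL1 were at the top, at 97.3%, 90.9% and 90.8%. NR4A3 (7.70%), ETV5 (13.9%), SPRY4 (18.6%) and SPRY2 (25.4%) were at the bottom. Members with much of their variance between groups were ZFP36L1 (42.7%), SPRY2 (38.4%), PHLDA1 (35.7%) and ETV5 (31.6%).

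**Figure D4:**
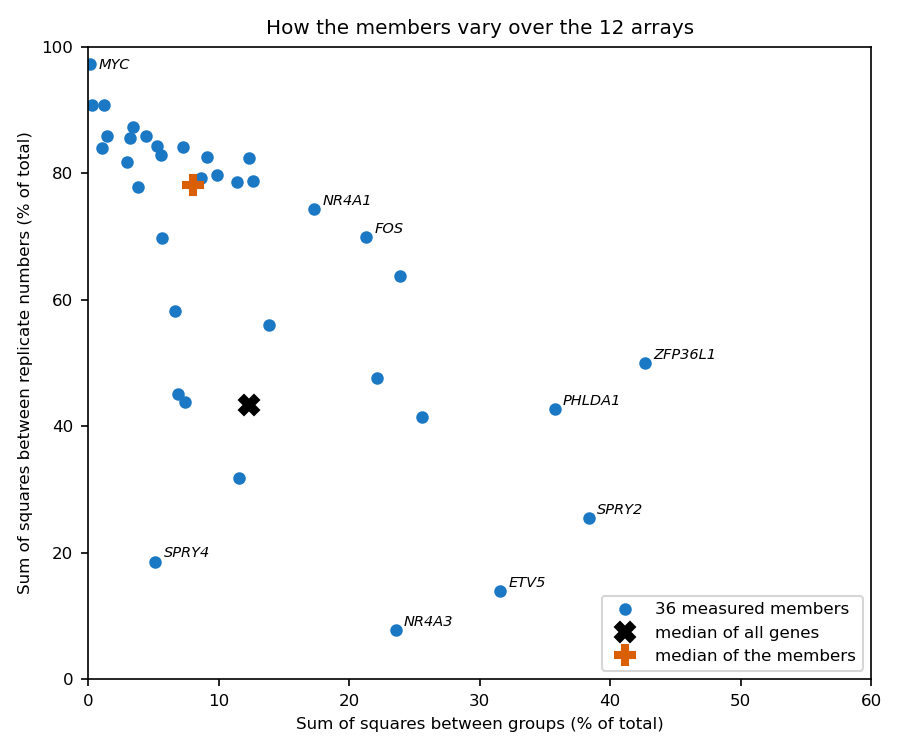
Share of the sum of squares over the 12 arrays between groups, on the horizontal axis, and between replicate numbers, on the vertical axis, in percent, for each measured member, with the medians of the members (8.05% and 78.2%) and of all genes (12.3% and 43.3%). Most members lie in the upper left corner, MYC furthest in it, and NR4A3, ETV5 and SPRY4 lie low.

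The treatments, which were both paired by the same numbers, were also compared directly. The mean of Aza minus AGA was below 0 for 13 of 36 (51.4% of all genes), and the median was 0.06 against -0.01 for all genes. Without AGA replicate 2 the median was -0.09 and 20 members were below 0. None passed the threshold in limma with the block (background 0% lower and 0% higher) or with the intensity trend (background 0.451% lower, 0.552% higher). At an unadjusted p under 0.05, limma marked FOS, NR4A1 and SRF as higher with Aza (background 4.43%) and KLF6 as lower (background 4.81%). FOS, SRF and CCN1 were higher with Aza in 4 of 4 pairs (background 8.69%), and NR4A3, KLF6, DUSP4 and ZFP36L1 lower (background 9.35%). For no member were the Aza arrays clear of the AGA arrays (background 1.33% lower, 1.22% higher). FOS was the 1 that reached 0.58 upward (background 2.81%) and DUSP4 the 1 downward (background 2.82%). FOS differed by 0.80 ± 0.27 (limma adjusted p = 0.467) and DUSP4 by -1.03 ± 0.58 (limma adjusted p = 0.639), of which pair 4 gave -3.56 and the other 3 pairs -0.31 to -0.01. Without the replicate 4 arrays the DUSP4 difference was -0.19.

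The genes upstream of the members and their other relatives were read in the same way. Over 18 measured genes of the RAS-ERK cascade, 15 of the JNK and p38 cascades, 12 other MAPK feedback genes and 20 cofactors of the SRF, CREB, ETS and YAP families, the median replicate 4 difference lay between -0.17 and 0.13 in each group, against -1.34 to -0.67 for the members. It was -0.50, -0.09 and -0.34 for 24 other immediate and delayed early genes. Of the 89 genes, SPRED2, a Sprouty-related inhibitor, THBS1, a matricellular protein, and TRIB1, a pseudokinase, were more than 1 lower in all 3 groups (background 2.03%). None were more than 1 higher (background 1.47%). Replicate 1 was the highest array in each group for 7 of the 24 other early genes (background 4.08%), RHOB, HBEGF and THBS1 among them.

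For the drugs, 0 of the 89 passed in limma with the block in any comparison. With the intensity trend, WWTR1 (TAZ, a relative of YAP), RHOB (a small GTPase) and THBS1 fell with AGA (background 0.351% lower). Their differences were -0.50 ± 0.09, -0.52 ± 0.11 and -1.20 ± 0.21 (limma adjusted p = 0.0198, 0.0360 and 0.0156). ATF2, a JNK and p38 target, and PTPN11, a phosphatase that aids RAS activation, were higher with Aza than with AGA in that fit (background 0.552% higher). They differed by 0.58 ± 0.10 and 0.38 ± 0.08 (limma adjusted p = 0.0105 and 0.0258). No gene of these lists passed for Aza against vehicle with the trend (background 0% lower, 0.00836% higher).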

How the data were processed

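RNA of each culture was measured on 1 Affymetrix array, 12 in all. The authors deposited linear intensity values, 1 per probe set (0.0206 to 11878), made with GCOS per the submitters' processing notes, with no version or algorithm stated. The array medians differed, and whether the authors scaled or centred the arrays is unknown. The number of arrays limits the precision.

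Of 22277 probe sets, 62 controls were left out; 19064 of the rest carried 1 gene symbol, 1043 several and 2108 none, and 19052 matched the gene table of GRCh38.p14, which changed 0 symbols. Values under 1 were set to 1. The medians of the log2 arrays spread over 0.62, above a limit of 0.5, and the arrays were quantile normalized. The limma package (version 3.58.1, under R 4.3.3, two-sided tests after lmFit and eBayes) was fitted to all 22215 probe sets and 12 arrays with group and replicate number as a block, with Benjamini-Hochberg adjustment over all probe sets, so the 3 groups shared 1 estimate of the spread; an intensity trend with robust eBayes was the alternative. The scripts were tested on simulated data. 0 pairs of arrays held identical values.

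Deviations from the group means correlated over 0.1 in 12 of 12 same-number pairs of arrays for probe sets above the median level (other numbers 0.18 at most), and in 6 of 12 (0.059 to 0.26) over all probe sets, where other numbers reached 0.029. The pairing comes from these data; the labels give only the numbers.

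The members, the lists and the replicate 4 contrast were chosen with earlier results of these data known. Given with every array were members past the threshold with the block or with the trend, those with 1 sign in 4 of 4 pairs and at least 0.58 in size, and those over 1 in replicate 4 in all 3 groups; PHLDA1 was added after its values were seen. Genes of other lists were named if past the threshold or over 1 in replicate 4, with RHOB and HBEGF chosen as examples. Alternatives were other scalings, floors and pseudocounts, all probe sets of a gene, no block and leaving out arrays; the trend combined with these was added after seeing the data.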

Additional observations from a re-analysis of the deposited data

Results flagged for a closer look

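DUSP4 in Aza replicate 4 stood at a log2 level of 1.00 (0.997), with the nearest of the other 3 Aza arrays at 5.99. The gap was 0.886 of the range of the group, above Dixon's 95% critical value for 4 samples. It was the only 1 of 36 groups checked (12 members in 3 groups). DUSP4 was among the members checked for its low replicate 4 in all 3 groups. The chance rate of about 1 in 20 therefore does not hold for it, and the ratio serves as a description. The deposited intensity of this probe set was 1.99 there and 67.5 to 111 on the other Aza arrays. The second DUSP4 probe set was also lower in Aza replicate 4 than the mean of the others, by a difference of -1.99.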

How the results depend on the processing

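The median of Aza minus AGA (0.06) changed sign without AGA replicate 2 (-0.09) or Aza replicate 2 (-0.01), with a range of -0.09 to 0.18, and 11 to 20 members were below 0. The AGA median ran from -0.44 to -0.19 with 1 array left out, and was -0.19 at a floor or with a pseudocount of 16 and -0.58 without normalization. With AGA, 0 members passed with the replicate block and 0 with no replicate block. With the block and intensity trend 1 passed (NR4A1), beside 158 of all 22215 probe sets. At a floor of 16 the count was 0 (0 of all probe sets), with a pseudocount of 16 also 0 (153), and with median centring 1 (146). Without normalization between arrays it was 6 (322 of all probe sets): FOS, FOSB, JUN, NR4A1, SPRY2 and IER2. There the median of all genes was itself -0.24. Without replicate 4 it was 5 (44 of all probe sets): FOS, JUN, NR4A1, ZFP36 and IER2. Leaving out 1 array with the trend gave 0 to 6 (26 to 231 of all probe sets), 6 without AGA replicate 4 (110). For Aza against AGA, with the trend, 2 members passed without normalization and 1 without replicate 4. With 1 array left out it was 0 to 2 (56 to 232 of all probe sets). The Aza median ran from -0.35 (without vehicle replicate 4) to -0.12. For replicate 4, the vehicle median was -0.92 at a floor of 16 and -0.96 with a pseudocount of 16, the AGA median -0.89 to -0.29 with 1 replicate left out (-0.29 without replicate 1), and 6 to 15 members were over 1 when 1 replicate was left out. The causes were not tested. With no replicate block, 2 probe sets in all passed for AGA, as with the block, and 158 with the trend. The count for Aza went from 0 to 2 with no block and 1 with the trend, and that for Aza against AGA from 2 to 3 and 191.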
